A study of Homo sapiens with 32 samples.

Results

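H3K27ac, the acetylation of histone H3 at lysine 27, was profiled in SK-N-BE(2)C neuroblastoma cells, and 1627 of 92108 consensus regions (1.77%) were under a broad peak with each of 3 treatments and mostly not in the vehicle. The regions were chosen by peak presence alone: a region was taken as gained with all 3 treatments when at least 1 of its bases lay under a peak in at least 3 of the 4 libraries of PB+RA, of RA and of PB, and in at most 1 of the 4 DMSO libraries. SK-N-BE(2)C is an established human line of the adrenergic, sympathetic neuron-like type with amplified MYCN and loss of chromosome arm 1p, so that all groups share these lesions. Cells were kept for 5 days in PB+RA (1 µM palbociclib with 10 µM retinoic acid), in RA (10 µM retinoic acid, a dose given by the study's methods), in PB (1 µM palbociclib) or in DMSO, the solvent. There were 4 ChIP and 4 input libraries for every group, and the replicates were cells of different passages plated independently. A single cell line was used, so the replicates measure its spread between platings and not that between tumors.

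H3K27ac marks active promoters and enhancers, and enhancers often lie in introns or between genes and far from the genes they act on. Palbociclib inhibits CDK4 and CDK6, the cyclin D-dependent kinases that phosphorylate RB and carry cells from G1 into S phase. Retinoic acid binds nuclear receptors of the RAR family, which pair with RXR on DNA and recruit histone acetyltransferases, and it is used in the maintenance therapy of neuroblastoma.

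Peaks per library ranged between 64516 and 104392 and covered 104 to 167 Mb. Reads per region and library were not analysed here, so the depth behind a single value is unknown. Of 9 adrenergic genes, 8 carried a peak on a start site in all 16 libraries. Of 5 T and B cell genes none had such a peak in more than 1 library, nor had any of 4 endothelial genes, whereas 5 of 8 mesenchymal genes had one in all 16 libraries.

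The DNA at the centre of 7 gained regions is shown because gained regions held less GC than regions in general, a difference whose values are given after the sequences. Each line holds 200 bases of hg19, forward strand, 5′ to 3′, around the middle of the stretch under peaks in the most libraries. Capitals mark, on either strand, the AP-1 motif TGAGTCA, the E-box motifs CAGCTG or CAGATG, the motif AGATAA of GATA factors, or the homeodomain motif TAATTA.

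SLC6A15 (chr12:85179395-85179594): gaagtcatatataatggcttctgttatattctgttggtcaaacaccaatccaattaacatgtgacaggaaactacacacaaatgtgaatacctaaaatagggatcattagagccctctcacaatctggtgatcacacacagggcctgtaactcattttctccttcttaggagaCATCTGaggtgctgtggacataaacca
FSTL1 (chr3:120215216-120215415): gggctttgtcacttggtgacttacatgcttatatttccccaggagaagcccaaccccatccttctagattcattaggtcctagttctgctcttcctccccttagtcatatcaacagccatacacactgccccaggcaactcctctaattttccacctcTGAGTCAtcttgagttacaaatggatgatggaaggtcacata
RIMS1 (chr6:72843085-72843284): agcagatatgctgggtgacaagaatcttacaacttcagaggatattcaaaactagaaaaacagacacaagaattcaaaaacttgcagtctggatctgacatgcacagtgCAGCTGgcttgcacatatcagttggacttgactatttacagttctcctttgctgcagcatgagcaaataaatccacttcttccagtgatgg
SEZ6L (chr22:26612019-26612218): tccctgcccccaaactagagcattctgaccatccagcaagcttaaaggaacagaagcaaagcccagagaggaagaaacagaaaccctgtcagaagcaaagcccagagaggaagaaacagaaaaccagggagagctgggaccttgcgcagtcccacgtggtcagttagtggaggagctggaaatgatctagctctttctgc
DUSP10 (chr1:221983149-221983348): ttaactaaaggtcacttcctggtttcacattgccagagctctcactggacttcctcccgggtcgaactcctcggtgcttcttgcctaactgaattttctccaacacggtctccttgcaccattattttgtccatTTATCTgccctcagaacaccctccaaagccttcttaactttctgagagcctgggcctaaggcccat
DLG2 (chr11:83831576-83831775): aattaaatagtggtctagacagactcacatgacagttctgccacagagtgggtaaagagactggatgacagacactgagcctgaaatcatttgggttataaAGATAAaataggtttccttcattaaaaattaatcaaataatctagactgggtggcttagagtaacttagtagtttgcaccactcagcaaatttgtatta
ALDH1A2 (chr15:58598788-58598987): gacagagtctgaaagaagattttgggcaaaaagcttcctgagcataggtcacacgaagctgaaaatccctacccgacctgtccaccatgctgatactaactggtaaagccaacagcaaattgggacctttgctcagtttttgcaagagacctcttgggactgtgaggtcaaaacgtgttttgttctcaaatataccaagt

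The GC content of these 7 windows ran between 36 and 51.5%, and those of SEZ6L and ALDH1A2 held none of the motifs marked by capitals. Motifs that are counted below but were not marked, such as AGGTCA, occur in some of the windows, among them that of ALDH1A2. For comparison, the window below is that of the intronic or intergenic region with the highest DMSO enrichment among 1596 regions under the mirrored rule (a peak in at least 3 DMSO libraries and at most 1 library of each treatment), and it held 54.5% GC and none of the searched letters.

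LINGO1 (chr15:78182798-78182997): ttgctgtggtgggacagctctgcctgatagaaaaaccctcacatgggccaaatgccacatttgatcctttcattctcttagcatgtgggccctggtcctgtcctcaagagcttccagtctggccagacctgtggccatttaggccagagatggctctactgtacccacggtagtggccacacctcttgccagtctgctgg

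The rule used the peaks of every library, so treatment against DMSO is described here with no test. Among the 4 PB+RA libraries, 1546 to 1604 gained regions had a peak, against 1437 to 1552 in RA, 1113 to 1554 in PB and 175 to 309 in DMSO. Replicate 4 of PB stood apart with 1113 regions, the next PB library having 1460. A peak was present in all 4 libraries for 1447 gained regions with PB+RA, 1108 with RA and 769 with PB, and 511 regions had one in all 12 treated libraries. In DMSO, 736 regions had no peak in any library and 891 had one in a single library. Where a peak was called, it covered a median of 54.9 to 73.9% of the region in the PB+RA libraries, 40.5 to 50.8% in RA, 22.9 to 43.8% in PB and 16 to 26.1% in DMSO. The DMSO values rest on the regions with a peak in a single DMSO library, since the rule took no others, and overlapped those of PB.

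**Figure D1:**
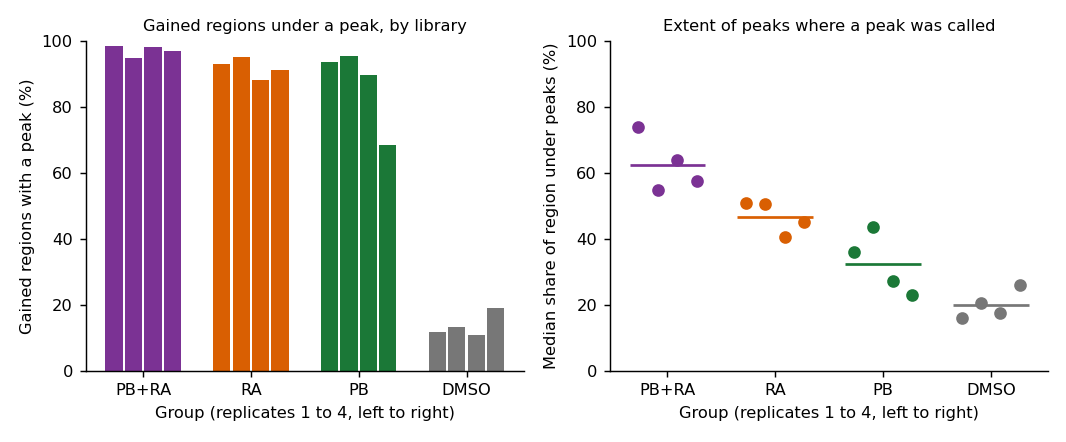
Left, the share of the 1627 gained regions with a peak in each library (bars, %). Right, the median share of a gained region's bases under peaks where a peak was called (points, libraries; lines, group means). The rule fixes the contrast of treated and DMSO libraries on the left; PB replicate 4 is the lowest treated library with 68.4%.

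The count depends on single libraries because the rule asks for 3 of 4. With the numbers of the rule kept, leaving out PB replicate 1, 2 or 3 gave 873, 842 or 936 regions and leaving out PB replicate 4 gave 1283, whereas leaving out DMSO replicate 2 or 4 gave 2453 or 2555. Asking for all 4 libraries of each treatment and no DMSO library left 196. Applied to 1 treatment at a time, the rule took 12401 regions with PB+RA, 8616 with RA and 4741 with PB. Of the 1795 that met it with both single agents, 168 did not meet it with PB+RA.

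The authors' group means, normalized by them and given on a log2 scale, also gave values for DMSO where no peak was called. The median authors' mean over gained regions was 6.44 for PB+RA, 6.02 for RA, 5.76 for PB and 4.87 for DMSO, where all 92108 regions had medians of 5.28, 5.23, 5.09 and 5.08. By these means, the gained regions were therefore near the middle of all regions in DMSO and above it with each treatment. The means were not adjusted here for region width, a median of 2313 bases over gained regions and 1727 over all regions. The mirrored regions, with peaks in DMSO, had a DMSO median of 4.59 at a median width of 980 bases. The part of background in the DMSO means was not tested. Over gained regions, the median difference from DMSO was 1.54 with PB+RA, 1.14 with RA and 0.88 with PB. All 3 treatment means were above the DMSO mean in 1589 of 1627 regions (97.7%, against 28.6% of all regions), which the rule favours. PB+RA had the highest of the 3 means at 1143 gained regions (70.3%, against 34.3% of all regions), RA at 320 and PB at 164. Under 40% GC, the excess of PB+RA over RA was similar in all regions: the median difference of the authors' means was 0.36 over gained regions and 0.40 over all regions under 35% GC, and 0.40 and 0.35 between 35 and 40%. At 50% GC or more it was 0.31 over gained regions and -0.39 over all regions. In a bulk assay, acetylation gained in fewer cells and a smaller gain in every cell cannot be told apart.

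**Figure D2:**
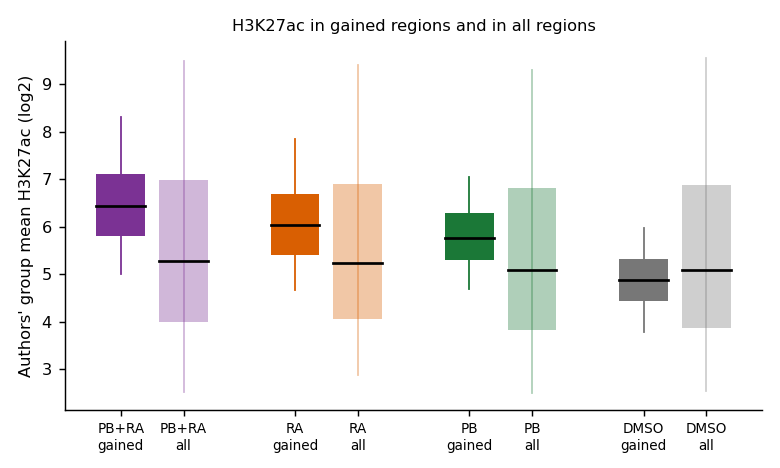
The authors' group mean H3K27ac (log2) in gained regions and in all regions, by group. Boxes span the quartiles over regions, black lines mark medians and whiskers the 5th and 95th percentiles over regions; they are no replicate error. The medians of gained regions step down over PB+RA (6.44), RA (6.02), PB (5.76) and DMSO (4.87), whereas those of all regions lie between 5.08 and 5.28.

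Values near the threshold are given with no test. The 47 regions that met the rule with exactly 3 libraries of each treatment and 1 of DMSO had median authors' means of 5.18 with PB+RA, 5.12 with RA, 5.00 with PB and 4.67 in DMSO. The 2918 regions that failed it by 1 library had medians of 6.05, 5.74 and 5.50 with PB+RA, RA and PB and 4.94 in DMSO. The regions just outside may have had peaks in all libraries of the other treatments, which those just inside could not, so the 2 sets are not alike.

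The gained regions lay farther from start sites than regions in general and were poorer in GC. Of those on reference chromosomes, 113 of 1626 (6.95%) lay within 3 kb of a protein-coding start site, against 21.5% of all regions, and the median distance was 48.0 kb against 23.2 kb. They fell in introns in 43.5%, between genes in 41.4% and over an exon in 15.1%, against 36.8, 33.5 and 29.7% of all regions. Their median width was 2313 bases against 1727. Their median GC content was 39.8% against 47.1%, while the 1596 mirrored regions had 52.6%. Regions with no DMSO peak had 38.9% GC and those with 1 DMSO library 40.7%.

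Base composition moved with the treatment groups across the whole assay. The median GC content of regions under a peak was 45.7 ± 0.520% in PB+RA libraries, 48.2 ± 0.356% in RA, 47.2 ± 0.830% in PB and 49.2 ± 0.511% in DMSO (SD, n = 4 each). No PB+RA or PB library reached the lowest DMSO library at 48.4%. Over all regions under 35% GC, the median difference of the authors' means from DMSO was 1.02 with PB+RA, 0.61 with RA and 0.60 with PB, whereas over all regions of 50% GC or more it was -0.60, -0.21 and -0.54. Gained regions made up 4.25% of regions under 35% GC and 0.232% of those at 50% or more. Within each class, the gained regions stood above all regions of that class, as the rule makes them: between 35 and 40% GC, their median difference was 1.68 with PB+RA, 1.29 with RA and 0.96 with PB, against 0.86, 0.51 and 0.44 for all regions. The part of base composition in the gain of peaks was not tested.

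**Figure D3:**
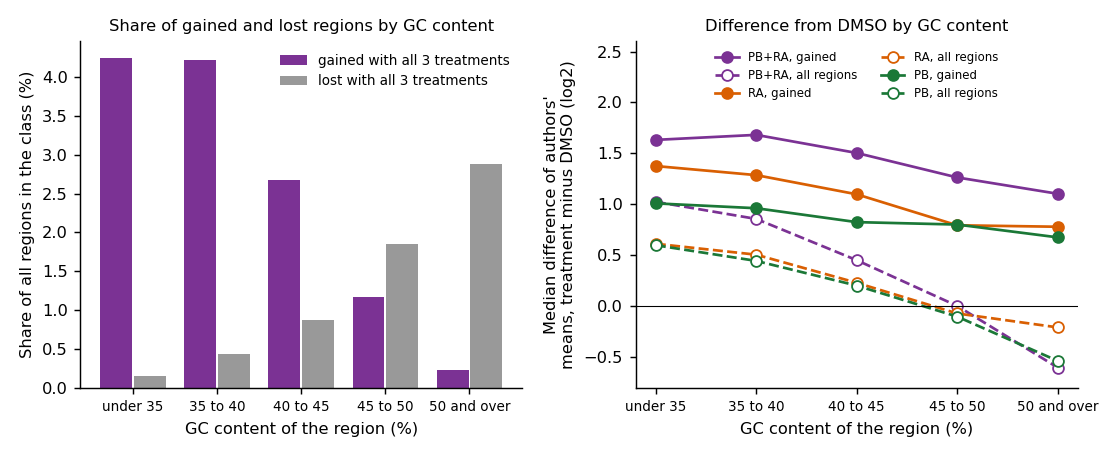
Left, gained regions and mirrored (lost) regions as a share of all regions in 5 classes of GC content (bars, %). Right, the median difference of the authors' group means, treatment minus DMSO (log2), in gained regions (filled points) and in all regions (open points). The share of gained regions was 4.25% under 35% GC and 0.232% at 50% or more, and the difference over all regions ran the same way.

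The difference in position was smaller among regions of like base composition. Between 35 and 45% GC, 6.81% of 1130 gained regions and 8.70% of all 33621 regions lay within 3 kb of a start site, at median distances of 49.5 and 45.9 kb, and introns held 46.2 and 47.3%. Gained regions of this class remained wider, at a median of 2407 bases against 1768. Their spacing differed too. The nearest region with a peak in all 16 libraries lay a median of 26.1 kb from a gained region, against 15.1 kb for all regions that are not such regions themselves, and between 35 and 45% GC the distances were 25.4 and 19.9 kb. Another gained region lay within 12.5 kb of 145 of the gained regions, the distance up to which the study stitched peaks into super-enhancers. Most thus had no other gained region that near, and the matching share over all regions was not computed. A region with a peak in all 16 libraries lay within 12.5 kb of 32.1% of gained regions, against 45.3% of all regions that are not such regions themselves. Between 35 and 45% GC the shares were 33.0 and 38.8%. By chromosome, gained regions made up 2.80% of regions on chromosome 4, the highest share, and 0.492% on chromosome 19, the lowest share among chromosomes with a gained region.

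Motif shares also moved with base composition. In the 500 bases around the centre, TAATTA was found in 22.6% of gained regions and 12.9% of all regions, AGATAA in 36.2 and 26.3%, and GGGCGG (SP and KLF factors) in 5.66 and 22.4%. Between 35 and 45% GC of the window, the shares were 24.3 and 22.8% for TAATTA, 38.9 and 42.5% for AGATAA, and 3.13 and 3.13% for GGGCGG. The AP-1 motif TGAGTCA was in 14.9% of gained regions and 11.7% of all, or 14.1 and 13.5% in that GC range. CAGCTG was in 26.0 and 30.6%, or 23.7 and 21.7% in that range. AGGTCA, the half-site of nuclear receptors, was in 32.2 and 28.7%, or 30.7 and 28% in that range, and AGGTCA repeated with 5 bases between was in 0 of 1626 gained windows and 0.0326% of all. A match of letters is no evidence of binding, and both strands were searched.

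The peak enrichment of each region was compared between treatments. Peak enrichment is the authors' fold enrichment over input averaged over the region's bases, with 0 outside peaks, scaled between libraries. The order in which regions are named uses the tested values and favours small differences between treatments. A contrast that did not pass among the highest is therefore no result on gained regions in general. Regions were ranked by the lowest of the 3 treatment means, which brings up those high with every treatment. The first, a block of 8798 bases (chr12:85176901-85185698) between genes and 81.4 kb from a start site of SLC6A15, a neuronal transporter of neutral amino acids, had values of 6.31, 6.33, 3.97 and 4.06 in PB+RA, 4.18, 3.27, 2.78 and 2.74 in RA, 3.51, 4.56, 2.72 and 2.94 in PB and 0.46, 0, 0 and 0 in DMSO. RA and PB overlapped here, and their difference did not pass (log2 difference of RA over PB -0.06 ± 0.21 SE, adjusted p = 0.92, limma with Benjamini-Hochberg adjustment).

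The region in an intron of RIMS1, a scaffold of the presynaptic active zone (chr6:72842018-72844348), had 3.95, 3.88, 3.51 and 4.62 in PB+RA, 3.14, 1.17, 2.72 and 3.52 in RA, 2.14, 2.66, 3.18 and 2.38 in PB and 0 in all 4 DMSO libraries. In PB+RA, 3 of 4 values were above every RA and PB value, and the PB+RA over RA difference of 0.50 ± 0.22 did not pass (limma adjusted p = 0.12).

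An intron of SEZ6L, which encodes a neuronal transmembrane protein (chr22:26611478-26612566), had 6.43, 5.37, 5.55 and 3.57 in PB+RA, 2.58, 3.0, 1.51 and 3.08 in RA, 1.75, 1.65, 3.37 and 3.84 in PB and 0, 0, 0 and 0.96 in DMSO. PB+RA was higher than RA by 0.82 ± 0.26 (limma adjusted p = 0.036) and higher than PB by 0.80 ± 0.26 (limma adjusted p = 0.035). The region next to DUSP10, a phosphatase of the p38 and JNK kinases (chr1:221982119-221984417), averaged 4.07 ± 1.13 in PB+RA, 3.12 ± 0.91 in RA and 2.51 ± 0.51 in PB (SD, n = 4 each), with a DMSO peak in replicate 4 at 0.34. The region nearest FSTL1, a secreted follistatin-like glycoprotein (chr3:120214530-120217118), averaged 3.92 ± 0.40 in PB+RA, 3.49 ± 0.49 in RA and 2.69 ± 1.12 in PB, with no DMSO peak. At neither did a contrast between treatments pass in limma (lowest adjusted p = 0.12 and 0.13).

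Other regions of the 12 highest were less even. The region nearest CD177, a surface glycoprotein of neutrophils, reached 18, 13.0, 11.8 and 8.43 in PB+RA and 10.4, 9.69, 6.09 and 7.27 in RA, against 2.68, 3.22, 2.22 and 3.35 in PB and 0 in DMSO. RA was higher than PB there by 1.26 ± 0.20 (limma adjusted p = 7.4e-05). The region nearest TM4SF19, which lies over an exon of the neighbouring UBXN7, had 8.39, 6.82, 6.47 and 6.19 in PB+RA and 3.75, 2.62, 1.64 and 2.80 in RA, with 4.25, 3.82, 2.91 and 6.34 in PB and 0.90, 0, 0 and 0 in DMSO. Here PB+RA was higher than RA by 1.13 ± 0.24 (limma adjusted p = 0.0029). The regions at KIF15 (a mitotic kinesin), ZC3H12C, MAGI1 (a junctional scaffold) and STK17A (a serine/threonine kinase) passed no contrast between treatments and averaged 2.71 to 4.0 in PB+RA, 2.50 to 3.51 in RA and 2.32 to 2.81 in PB.

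**Figure D4:**
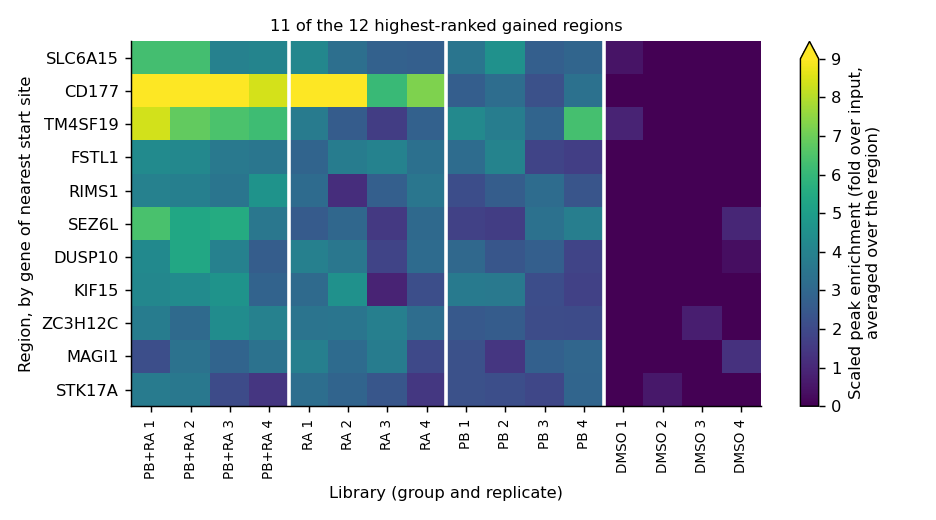
Scaled peak enrichment (fold over input averaged over the region; colour) of 11 of the 12 highest-ranked gained regions in the 16 libraries, named by the gene of the nearest start site. The colour scale ends at 9, which 5 libraries exceeded at the CD177 region. All 11 rows were chosen for peaks in the treated libraries and at most 1 DMSO library shows a value above 0 in any row.

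Gained regions at start sites were mostly not at the first start site of a gene. Of 59 within 1 kb of a start site, 17 lay within 1 kb of the gene's outermost 5′ end, whereas 40 lay over 10 kb from it, at start sites of shorter transcripts. The matching shares over all regions near a start site were not computed. The rule also left out every start-site region with a peak in more than 1 DMSO library, so these counts are a description only. MAGI1 (chr3:65582163-65583713) and LAMA2, which encodes the laminin alpha 2 chain (chr6:129810416-129812887), were 441 and 606 kb from their outermost 5′ ends. The LAMA2 region had 2.01, 2.19, 0.71 and 2.47 in PB+RA, 3.03, 1.74, 2.21 and 1.86 in RA, 2.2, 3.71, 2.00 and 1.34 in PB and 0 in DMSO, so the 3 treatments overlapped. Outermost 5′ ends among the 10 highest start-site regions included those of HAO1 (a peroxisomal oxidase of 2-hydroxy acids) and SCML4, and the region at CASP8, the initiator caspase of death receptors, lay 610 bases from one. At CASP8 the 3 treatments overlapped, with 1.63, 1.21, 1.30 and 2.92 in PB+RA, 1.14, 0.96, 3.41 and 1.14 in RA, 2.13, 0.85, 2.07 and 1.74 in PB and 1.88, 0, 0 and 0 in DMSO. Others of the 10, at ADAT1, AZIN1, TMEM232 and BBX, lay between 11.8 and 75.3 kb from the outermost 5′ end.

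Within 100 kb, 1107 gained regions were assigned to 932 genes, 6.26% of the 14895 genes with any region. Of these 932 genes, 718 (77.0%) also had a start-site region with a peak in all 16 libraries, against 69.6% of all genes with a region. In 800 genes there was 1 gained region and in 26 there were 3 or more. The nearest gene need not be the one a region acts on.

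DLG2, which encodes a postsynaptic scaffold of the PSD-95 family, had the most, with 8 gained among 94 assigned regions, all within its introns or exons over 803 kb. Its highest-ranked region (chr11:83826690-83835600) had 3.98, 3.61, 3.97 and 4.06 in PB+RA, 2.87, 2.95, 2.49 and 2.59 in RA, 0.58, 0.76, 0.59 and 1.10 in PB and 0.09, 0, 0 and 0 in DMSO, and no 2 groups overlapped. DACH1, a transcriptional regulator of the retinal determination network, had 7 of 33. The highest-ranked (chr13:72175269-72178158) had 1.37, 2.24, 3.0 and 4.28 in PB+RA, 1.64, 1.46, 2.64 and 1.44 in RA, 0.51, 2.11, 1.23 and 1.80 in PB and 0, 0, 0.93 and 0 in DMSO. Another (chr13:72216231-72219722), chosen after its values were seen, had 3.09, 3.24, 4.94 and 2.86 in PB+RA, 4.98, 5.71, 3.5 and 2.80 in RA, 0.67, 0.35, 0.28 and 0 in PB and 0 in DMSO, so that every PB value was below every PB+RA and RA value. SIPA1L1, ZFAT, DST (dystonin, a cytoskeletal linker), CMIP, ADGRB3 (an adhesion receptor of synapses) and CCDC102B had 4 each, out of 39, 26, 37, 47, 30 and 11 regions. At ZFAT, 3 regions upstream of the gene had PB+RA values between 2.91 and 4.96 and RA and PB values between 0.31 and 2.13. A CMIP region chosen after its values were seen (chr16:81607328-81608547) met the rule although the authors' means were 4.44 with PB+RA, 4.51 with RA, 4.08 with PB and 4.48 in DMSO, so a gain in peaks need not go with a higher group mean.

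Gene lists are given as counts beside all genes with a region, where 6.26% of genes had a gained region and 1.53% of assigned regions were gained. The lists were not matched for GC content, and the share of gained regions fell from 4.25% under 35% GC to 0.232% at 50% or more. Nor were they matched for regions per gene, a median of 8 in genes with a gained region and 3 in all genes. Whether a list stands apart from regions of like GC content was not tested. The authors' means differed from DMSO by a median of -0.09 with PB+RA, -0.04 with RA and -0.17 with PB over all assigned regions. In axon growth and guidance, 14 of 53 genes had a gained region (17 of 739 regions, 2.30%), and the list's medians were 0.20 with PB+RA, 0.03 with RA and 0.16 with PB. They included NCAM2, a neural adhesion molecule, DPYSL3, a collapsin response mediator, NRP2, a semaphorin receptor, and STMN2, a regulator of microtubules in growing axons. The region next to DPYSL3 (chr5:146952454-146955029) had 2.41, 2.30, 2.75 and 1.57 in PB+RA, 1.33, 2.09, 2.06 and 1.57 in RA, 0.23, 1.07, 0.92 and 1.84 in PB and 0 in DMSO, and the authors' means there were 6.74, 6.70, 6.0 and 3.81 in the same order.

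Synaptic vesicle and release genes had a gained region in 8 of 43 (9 of 348 regions, 2.59%; medians 0.09 with PB+RA, -0.01 with RA and 0.10 with PB), among them RIMS1, SYT4, SYN2 and SNAP25, which encode an active-zone scaffold, a synaptotagmin, a synapsin and a SNARE. The postsynaptic list had 4 of 38 (12 of 370 regions, 3.24%; medians 0.29, 0.04 and 0.12 with PB+RA, RA and PB), 8 of its 12 regions being those of DLG2. The others were at GRIA1 and GRIK2, subunits of ionotropic glutamate receptors, and GRM7, a metabotropic one. Dense-core vesicle and peptide genes had 6 of 27 (8 of 221 regions, 3.62%; medians 0.23, -0.08 and 0.15), with PAM, which amidates peptides, CADPS, which primes vesicles, and CARTPT, a neuropeptide precursor. The CADPS region had 3.43, 2.82, 2.66 and 2.38 in PB+RA, 1.25, 0.72, 0.65 and 1.44 in RA, 3.16, 2.31, 2.43 and 3.85 in PB and 0 in DMSO, so that RA was the lowest treatment. Ion channel genes had 5 of 47 (6 of 558 regions, 1.08%; medians 0.03, -0.07 and 0.04), with KCNIP4, KCNMB2, KCNA2 and SCN8A.

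Retinoic acid response genes had 4 of 20 (6 of 163 regions, 3.68%), and the list's medians were 0.23 with PB+RA, 0.49 with RA and -0.21 with PB. ALDH1A2, which makes retinoic acid from retinal, had a region in an intron (chr15:58598045-58600105) with 5.33, 4.14, 3.03 and 2.81 in PB+RA, 3.85, 3.08, 1.95 and 2.03 in RA, 0.68, 1.59, 1.18 and 2.62 in PB and 0, 0, 0.43 and 0 in DMSO. RARB, a retinoic acid receptor, had one with 1.04, 2.92, 2.77 and 0.71 in PB+RA, 2.32, 1.34, 2.4 and 0 in RA, 1.06, 1.00, 0.43 and 1.82 in PB and 0 in DMSO, where the treatments overlapped. The others were at TGM2, a transglutaminase, and MEIS2, a homeobox cofactor. Extracellular matrix and adhesion genes had 12 of 51 (15 of 417 regions, 3.6%; medians 0.15, 0.19 and -0.01), with LAMA2, NID1, LAMA4 and ITGA6, and LAMA4 had 3 of 16.

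Of the adrenergic circuit, 3 of 18 genes had a gained region (3 of 206, 1.46%), namely EYA1, ISL1 and KLF7, and the list's medians were -0.52 with PB+RA, -0.30 with RA and -0.29 with PB. The ISL1 region (chr5:50669314-50670205) had 1.64, 3.85, 1.57 and 0.63 in PB+RA, 1.75, 0, 0.93 and 1.05 in RA, 1.40, 1.20, 1.82 and 1.71 in PB and 0, 0, 0 and 0.99 in DMSO. E2F targets and cell cycle genes had 3 of 49 (3 of 167 regions, 1.80%; medians -0.65, -0.24 and -0.44), namely E2F7, E2F3 and CDC45. Neuronal transcription factors had 4 of 44 (1.11% of regions; medians -0.44, -0.23 and -0.26 with PB+RA, RA and PB), and growth factor genes 4 of 33 (1.21%; medians -0.32, -0.19 and -0.24), namely ERBB4, NRG3, FGF14 and GDNF. The cAMP, calcium and G protein genes had 8 of 48 (1.28%; medians 0.13, 0.23 and 0.09), and sarcomere genes 4 of 32 (1.48%; medians 0.26, 0.13 and 0.06). Mesenchymal genes had 2 of 28, VIM and ZEB2 (0.957% of regions; medians -0.02, 0.16 and -0.20), and catecholamine and cholinergic genes 1 of 18, CHRM3 (1.46%; medians 0.22, -0.06 and 0.22). Kidney genes had 1 of 23, EYA1 (0.641%; medians -0.92, -0.45 and -0.60), and housekeeping genes 1 of 18, YWHAZ (1.18%; medians -0.09, 0.08 and -0.27). None was found among 18 CDK inhibitor and G1 genes, 18 neural crest and Schwann genes, 8 immune genes and 10 endothelial genes, which had 96, 102, 27 and 41 regions. Where 1.53% of all assigned regions were gained, lists with so few regions can hold none, so this is no result about these genes. The medians of these 4 lists ran between -0.82 and -0.0033 with PB+RA, -0.45 and 0.50 with RA and -0.64 and -0.12 with PB, those of the endothelial genes being the lowest with each.

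Peak enrichment was tested between treatments over all 92108 regions, since the rule treats the 3 alike, although it bounds how far they can differ. A region was called at an adjusted p under 0.05 and a log2 difference over 0.5. With PB+RA over PB, 606 gained regions were higher (37.2%, against 11.1% of all regions) and 7 were lower (0.430% against 5.33%), with a median difference of 0.68 against 0.02 over all regions. With PB+RA over RA, 305 were higher (18.7% against 8.58%) and 7 lower (0.430% against 5.88%), with a median of 0.41 against 0. With RA over PB, 308 were higher (18.9% against 12.2%) and 68 lower (4.18% against 9.29%), with a median of 0.24 against 0.10. PB+RA was higher than each single agent at 198 gained regions, and 828 were called in no contrast. For these counts, the matching shares over all regions were not computed, so whether they are particular to gained regions is unknown.

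Against all regions of like GC content, the contrast of PB+RA over RA set gained regions apart little below 45% GC. Under 35% GC, 21.7% of gained regions and 20.7% of all regions were higher with PB+RA over RA (median differences 0.43 and 0.52), and between 35 and 45% GC, where most gained regions lie, the shares were 19.6 and 15.9% (medians 0.43 and 0.30). At 45% GC or more they were 13.7 and 2.89%. For PB+RA over PB, the shares were 39.4 and 23.6% under 35% GC and 39.6 and 19.9% between 35 and 45%, and for RA over PB they were 19.2 and 9.79% and then 20.5 and 13.1%.

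The calls depended on the measure. With the highest fold enrichment of the overlapping peaks in place of the average over the region, 15 gained regions were higher with PB+RA over PB, 0 with PB+RA over RA and 5 with RA over PB, none was lower in any contrast (limma, with 8 higher for PB+RA over RA and 1, 0 and 0 lower for RA over PB, PB+RA over RA and PB+RA over PB at an unadjusted p under 0.05), and the median differences were 0.37, 0.11 and 0.10. Of all 92108 regions, 5037 were higher with PB+RA over PB by this measure, 3610 with PB+RA over RA and 5331 with RA over PB. The share called higher was thus smaller among gained regions than among all regions in each contrast, the reverse of the main measure. Base composition again moved with the contrasts. With the trend over GC content subtracted in each library, an alternative added after seeing the data, 548 gained regions were higher with PB+RA over PB (33.7%, against 10.6% of all regions) and 17 lower, 152 higher with PB+RA over RA (9.34% against 5.59%) and 61 lower, and 433 higher with RA over PB (26.6% against 12.5%) and 57 lower. The median difference of PB+RA over RA was 0.15 under this subtraction. Without PB+RA replicate 1, 199 were higher with PB+RA over RA. Without PB replicate 4, the library that stood apart, 515 were higher with PB+RA over PB and 257 with RA over PB.

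**Figure D5:**
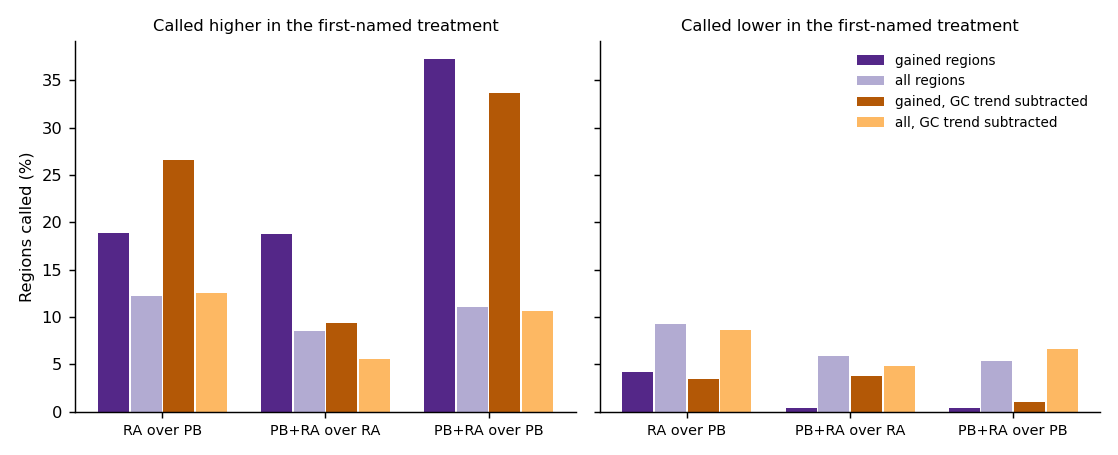
The share of regions (%) called higher (left) or lower (right) in the first-named treatment of each contrast, for gained regions and for all regions, as measured and with the GC trend subtracted in each library. Of gained regions, 37.2% were higher with PB+RA over PB, or 33.7% with the subtraction, and 18.7% with PB+RA over RA, or 9.34%.

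Differences from PB were large at some regions. A region of 12887 bases over SMPX, a small protein of striated muscle (chrX:21755857-21768743), had 8.2, 7.57, 6.0 and 6.04 in PB+RA, 7.40, 6.25, 4.67 and 4.69 in RA, 0.04, 0.54, 0.23 and 0 in PB and 0 in DMSO. RA was higher than PB by 2.49 ± 0.21 (limma adjusted p = 3.4e-08), and the adjusted p stayed at or under 0.012 in each of the 22 alternatives run for this region. A region of 12656 bases nearest SYT17, of the synaptotagmin family (chr16:19146263-19158918), had 10.8, 8.67, 7.64 and 6.48 in PB+RA, 5.06, 5.65, 3.92 and 4.09 in RA, 0.15, 0.22, 0.04 and 0 in PB and 0, 0, 0 and 0.09 in DMSO. Its PB+RA over PB difference was 3.08 ± 0.21 (limma adjusted p = 7.3e-10). At both, PB peaks met the rule while covering little of the region. GRK5, a kinase of G protein-coupled receptors, and CES5A had regions higher with RA over PB by 2.24 ± 0.22 and 2.16 ± 0.24 (limma adjusted p = 2.3e-07 and 1.0e-06), but with the highest fold enrichment the differences were 0.98 and 1.01 and neither passed (limma adjusted p = 0.065 and 0.11). Near USP25 and PAQR3, PB+RA was higher than PB by 2.85 ± 0.21 and 2.70 ± 0.22 (limma adjusted p = 5.1e-09 and 1.3e-08).

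Some regions ran the other way. In an intron of GNAQ, the Gq alpha subunit (chr9:80601086-80603416), PB+RA had 2.96, 2.25, 2.55 and 2.32, RA had 0.39, 0.72, 0.32 and 0, PB had 3.80, 2.65, 3.12 and 3.70, and DMSO had 0. RA was lower than PB by 1.69 (difference -1.69 ± 0.25, limma adjusted p = 2.7e-05). In an intron of PPP3CB, a catalytic subunit of calcineurin, 157 bases from a start site, RA had 0.39, 0.87, 0.67 and 0.96 and PB had 6.5, 5.57, 3.22 and 2.56 (difference -1.61 ± 0.25, limma adjusted p = 5.8e-05), with 4.76, 4.96, 3.48 and 2.98 in PB+RA. The regions nearest CAAP1 and in PSD3 had differences of -1.56 ± 0.25 and -1.55 ± 0.33 (limma adjusted p = 6.3e-05 and 0.0014). With the highest fold enrichment, none of these 4 passed.

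PB+RA over RA was highest in an intron of MAGI2, a synaptic scaffold, and nearest ZNF99, at 1.77 ± 0.33 each (both limma adjusted p = 0.0012), at BAAT, where the region overlaps MRPL50 (1.72 ± 0.29, limma adjusted p = 0.00057), and in an intron of ABHD13 (1.71 ± 0.22, limma adjusted p = 8.6e-05). The ABHD13 region had 6.12, 5.10, 8.69 and 6.47 in PB+RA, 1.48, 1.46, 0.90 and 1.41 in RA, 0.91, 1.16, 1.30 and 1.01 in PB and 0, 0, 0.14 and 0 in DMSO, so that RA and PB overlapped and every PB+RA value was above them. PB+RA was lower than RA at TRPM3, a cation channel, with 1.52, 0.59, 1.60 and 1.23 in PB+RA against 5.33, 3.85, 3.20 and 4.11 in RA (difference -1.21 ± 0.28, limma adjusted p = 0.0063), and at HACD3, KDM5A (an H3K4 demethylase) and TNC (tenascin-C), by -1.24 ± 0.30, -1.10 ± 0.35 and -1.04 ± 0.29 (limma adjusted p = 0.0073, 0.034 and 0.020). The KDM5A call was lost in 6 of 22 alternatives, those at HACD3 and TRPM3 in 2 each and that at TNC in 1. With the highest fold enrichment, none of the 8 PB+RA over RA calls named here passed, and the HACD3 difference was -0.09 (limma adjusted p = 0.98). PB+RA was lower than PB nearest PCDH18, SMIM15 and NUDT12 and in IST1, by differences between -1.31 and -1.03 (limma adjusted p between 0.0078 and 0.036), and these 4 calls were lost in 2 to 10 of 22 alternatives.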

How the data were processed

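H3K27ac ChIP-seq of SK-N-BE(2)C cells was used, with 4 ChIP libraries in each of 4 groups, and groups came from sample titles. Per the submitters' processing notes, the authors used fastp 0.12.4 for trimming, Bowtie2 2.4.4 for alignment (hg19), MACS2 2.2.7.1 for the broad peaks of each library and DiffBind 3.4 for consensus regions, which the study's methods say kept peaks of at least 2 of 4 replicates of a condition. Each deposited peak carries a ratio (fold enrichment relative to input) and a −log10 q. The deposited comparison tables give a log2 mean per group, normalized by the authors, with no spread between libraries. Their fold changes, p-values and FDR of treatment over DMSO were not used.

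The gained regions and the gene lists were chosen with earlier results of these data known. Deposited starts count from 0, so printed coordinates are hg19 with 1 added to the start. GRCh37 with GENCODE genes matched 24 of 31 sequence names, and the 16 regions on the remaining names entered no step with genes or sequence. The nearest protein-coding start site within 100 kb gave the gene. Peak enrichment was divided in each library by its median over the 26508 regions with a peak in all 16 libraries, relative to the geometric mean, and tested as log2(value + 1), which understates differences at low values, with limma 3.58.1 (trend, robust; R 4.3.3) over all regions and groups, Benjamini-Hochberg adjusted. Peaks depend on depth and base composition, for which no correction is stated, so a missing peak need not mean lower acetylation. Named regions were the 12 highest by the lowest treatment mean, the 10 highest within 1 kb of a start site, the 8 genes with most gained regions, the 4 largest called differences for each contrast and direction and up to 4 genes for each list. A few of these are not reported here. The alternatives were peak cover, peak q, a stricter rule, pseudocount, scaling, a filter, the highest fold enrichment, a replicate block, each library left out, distance limits and, added later, GC content.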

Additional observations from a re-analysis of the deposited data

How the results depend on the processing

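The count of 1627 gained regions stayed within 1.5 times when 25% of a region had to lie under peaks. It was 216 with peaks of −log10 q of at least 5, 196 under the rule of 4 of 4 and 0 of 4, and 842 to 2555 with 1 library left out, where the unchanged numbers of the rule are stricter for a treatment and looser for DMSO by construction. Genes with a gained region numbered 275 within 10 kb, and 3.63% of gained regions lay within 1 kb of a start site. With a pseudocount of 0.1, 33 gained regions were lower with RA over PB, 76 higher and 1 lower with PB+RA over RA, and 353 higher and 0 lower (9 at an unadjusted p under 0.05 in limma) with PB+RA over PB. At this pseudocount, 6857 of all 92108 regions were higher with PB+RA over RA and 9280 with PB+RA over PB. The share called higher was thus smaller among gained regions than among all regions for PB+RA over RA, and larger for PB+RA over PB. Without scaling, 45 were lower with RA over PB and 1 lower with PB+RA over PB. With the highest fold enrichment, 5 were higher and 0 lower with RA over PB, 0 higher and 0 lower with PB+RA over RA, and 15 higher and 0 lower with PB+RA over PB. Among all 92108 regions, 5331, 3610 and 5037 were higher in these 3 contrasts, larger shares than among gained regions. With the GC trend subtracted (added after seeing the data), 152 were higher and 61 lower with PB+RA over RA, and 17 lower with PB+RA over PB. The causes of these shifts were not tested. With 1 library left out, calls ran between 243 and 322 higher and 50 and 76 lower with RA over PB, 199 and 328 higher and 3 and 10 lower with PB+RA over RA, and 491 and 619 higher and 1 and 8 lower with PB+RA over PB. Among 24 same-numbered pairs of libraries, 16 had deviations correlated above 0.1 (range -0.078 to 0.23), and 9 matched their own number best, so not every pair was above 0.1 and the numbers were not taken to pair the samples. With a replicate block, 335 were higher and 83 lower with RA over PB, 345 and 8 with PB+RA over RA, and 647 and 8 with PB+RA over PB. Read depth was not at hand, so no limit of detection can be set for a missing peak.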
